A study of Mus musculus with 30 samples.

Results

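Immediate early genes and other genes induced by neuronal activity were followed as a set of 41 genes in the mouse hypothalamus through fasting, cold and refeeding. The members were chosen by gene name and matched by Ensembl identifier in 3 tables of read counts, and all 41 were found among 55401 identifiers. By role they comprise 8 members or partners of the AP-1 transcription factor family (Fos, Fosb, Fosl2, Jun, Junb, Jund, Atf3, Maff), 4 EGR zinc finger factors (Egr1 to Egr4), 3 orphan nuclear receptors of the NR4A family (Nr4a1 to Nr4a3) and 9 other regulators of transcription (Npas4, Klf2, Klf4, Klf10, Nfil3, Csrnp1, Ier2, Ier5, Btg2). A further 11 were grouped under signalling, protein turnover or messenger RNA decay (Dusp1, Dusp5, Dusp6, Sik1, Trib1, Rgs2, Arl4d, Pim1, Gadd45b, Zfp36, Tiparp). They are called feedback regulators below, which is a group name and not a role shown for each. The other 6 encode synaptic or secreted effectors (Arc, Homer1, Bdnf, Nptx2, Ptgs2, Inhba).

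Immediate early genes are transcribed within minutes of a stimulus without new protein synthesis. In neurons, calcium entry and cyclic AMP act through kinases on factors already bound at their promoters, chiefly CREB at cyclic AMP response elements (CRE) and SRF with its partners at CArG boxes. The first proteins made, such as FOS, EGR1 and NPAS4, are themselves transcription factors that switch on later genes, while phosphatases such as DUSP1 shut the kinases off again. In the hypothalamus, FOS and its relatives are widely used as a record of which neurons have recently been active, for instance in feeding and fasting. Most of these genes also respond to growth factors, stress or blood flow in glia and vessel cells, so their RNA in a whole-tissue sample is not neuronal alone.

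Bulk RNA-seq had been performed on hypothalamus of wild-type C57BL/6 (B6) mice in 9 groups. One count table held fed mice, mice fasted for 24 h, mice fasted for 72 h and mice fasted for 72 h and kept in the cold at 18 C, with 3 libraries each. Another held mice fasted for 72 h and then refed for 1 h (n = 3), 12 h (n = 3) or 1 week (n = 4). The last held mice refed for 1 month after a 72 h fast and fed controls for that time, with 4 libraries each. No library of fasted or fed mice stands in the refeeding table, so a level after refeeding was compared only with other times of refeeding. Age, sex and time of day are not given in the sources used here. Nor do they say whether libraries of a group came from separate animals, so that p-values measure the spread between these libraries, which may in part be technical.

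Totals lay between 27111216 and 43397395 counts per library in the fasting table and between 26115967 and 64269426 in the refeeding table. In the 1-month table they lay between 9347942 and 13813956. In the refeeding table each 1 week library had 46909406 counts or more, and each 1 h or 12 h library 34051433 or fewer. Comparisons with 1 week therefore coincide with a difference in depth, whose part was not tested. Levels are in CPM, a gene's counts relative to the library total, after scaling by TMM, a normalization that matches the bulk of genes between libraries. Levels are read only within a table. Csrnp1 shows why: it was at 0 in all libraries of the fasting and refeeding tables and at 5.85 to 11.5 CPM in the 1-month table, and its whole span in the annotation (100% of 13496 bases) is shared with other genes, so its 0 is no sign that the gene is silent. Shared span also covers 90.1% of Inhba, 55.1% of Jund, 36.7% of Zfp36, 21.9% of Pim1 and 21.6% of Jun, so counts of these genes are uncertain. The 13 hypothalamic markers, among them Agrp, Pomc, Hcrt and Avp, were detected in each group, summing to 199 to 382 CPM in the fasting table, 372 to 620 CPM in the refeeding table and 920 to 1224 CPM in the 1-month table. The 12 markers of striatal projection neurons, a cell type of the neighbouring forebrain that is rich in activity-induced genes, were detected too, at 490 to 1359, 555 to 2009 and 302 to 365 CPM. In bulk tissue, fewer cells of a type and less RNA per cell cannot be told apart.

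The members' promoters were searched for the elements named above. Windows from 250 bases before to 50 bases after each RefSeq transcription start (GRCm38.p6) were available for 33 of the 41 genes. They make 50 windows, as some genes have several starts. Egr1, Egr3, Arc, Trib1, Ier2, Sik1, Nptx2 and Klf10 had no window, so their promoters were not read. Both strands were searched. The core of the CRE, TGACG, stood in 29 of 50 member windows (58.0%) and in 20.8% of all 32851 windows. The full palindrome TGACGTCA, which contains the core, stood in 4 member windows (8.0%, against 1.79% of all), those of Arl4d, Btg2, Dusp1 and Maff. CArG boxes stood in 6 member windows (12.0%, against 1.63%), which belong to 3 genes (Dusp5, Egr2 and Zfp36). The EGR site GCGGGGGCG stood in 6 windows of 6 genes (12.0%, against 2.91%). The AP-1 site TGANTCA was rarer among members than among all windows (2 of 50, 4.0%, against 7.81%), and the NR4A site AAAGGTCA was in no member window (1.51% of all). A match describes the letters only and shows no binding. Bases outside the windows were not searched, so a gene without a match may have a site elsewhere.

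Windows of 6 members whose values are central below are printed 5′ to 3′ on the strand of the gene, with each CRE core, read on either strand, in capitals. No AP-1 site, CArG box or NR4A site stood in these windows, and bases farther upstream were not searched.
Fos: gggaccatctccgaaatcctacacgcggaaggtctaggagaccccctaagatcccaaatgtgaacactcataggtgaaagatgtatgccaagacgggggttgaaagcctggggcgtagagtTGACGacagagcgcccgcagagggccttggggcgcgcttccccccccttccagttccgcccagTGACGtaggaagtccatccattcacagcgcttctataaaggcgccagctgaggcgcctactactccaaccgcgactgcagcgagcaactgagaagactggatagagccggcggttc
Fosb: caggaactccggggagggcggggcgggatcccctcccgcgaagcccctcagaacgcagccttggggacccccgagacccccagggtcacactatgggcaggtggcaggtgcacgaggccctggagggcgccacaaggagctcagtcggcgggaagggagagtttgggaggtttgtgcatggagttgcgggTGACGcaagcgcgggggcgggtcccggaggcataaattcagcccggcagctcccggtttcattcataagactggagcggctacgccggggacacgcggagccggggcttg
Junb: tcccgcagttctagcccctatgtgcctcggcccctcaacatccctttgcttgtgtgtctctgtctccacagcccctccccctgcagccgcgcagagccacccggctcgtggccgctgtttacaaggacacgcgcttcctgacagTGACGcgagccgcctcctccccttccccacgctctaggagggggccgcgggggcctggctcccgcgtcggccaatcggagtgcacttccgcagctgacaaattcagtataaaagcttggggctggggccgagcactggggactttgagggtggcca
Egr4: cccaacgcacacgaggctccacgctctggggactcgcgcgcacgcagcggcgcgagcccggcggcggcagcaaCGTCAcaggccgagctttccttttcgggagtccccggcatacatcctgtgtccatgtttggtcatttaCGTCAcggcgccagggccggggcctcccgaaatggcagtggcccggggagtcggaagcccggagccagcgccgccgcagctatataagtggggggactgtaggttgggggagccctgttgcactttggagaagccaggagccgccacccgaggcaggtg
Nr4a1: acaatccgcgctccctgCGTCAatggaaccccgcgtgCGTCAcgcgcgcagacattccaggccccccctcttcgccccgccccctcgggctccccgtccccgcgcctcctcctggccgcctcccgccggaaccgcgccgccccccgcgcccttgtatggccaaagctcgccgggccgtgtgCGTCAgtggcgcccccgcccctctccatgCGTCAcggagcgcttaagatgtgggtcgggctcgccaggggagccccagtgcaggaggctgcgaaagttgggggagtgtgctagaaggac
Npas4: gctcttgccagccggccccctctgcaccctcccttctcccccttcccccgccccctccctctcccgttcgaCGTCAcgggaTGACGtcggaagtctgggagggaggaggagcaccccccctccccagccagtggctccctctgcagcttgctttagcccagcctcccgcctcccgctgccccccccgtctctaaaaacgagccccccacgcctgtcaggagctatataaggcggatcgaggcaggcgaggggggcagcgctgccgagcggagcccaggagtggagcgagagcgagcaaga
These windows lie at chr12:85473640-85473939 (Fos), chr7:19309996-19310295 (Fosb), chr8:84978699-84978998 (Junb), chr6:85513540-85513839 (Egr4), chr15:101266596-101266895 (Nr4a1) and chr19:4989922-4990221 (Npas4) of GRCm38.p6. Fos holds 2 CRE cores, starting 129 and 66 bases before the start site, Nr4a1 holds 4, Egr4 and Npas4 hold 2 each, and Fosb and Junb hold 1 each. Fosb and Nr4a1 also have 1 EGR site each, which is left in lower case.

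**Figure D1:**
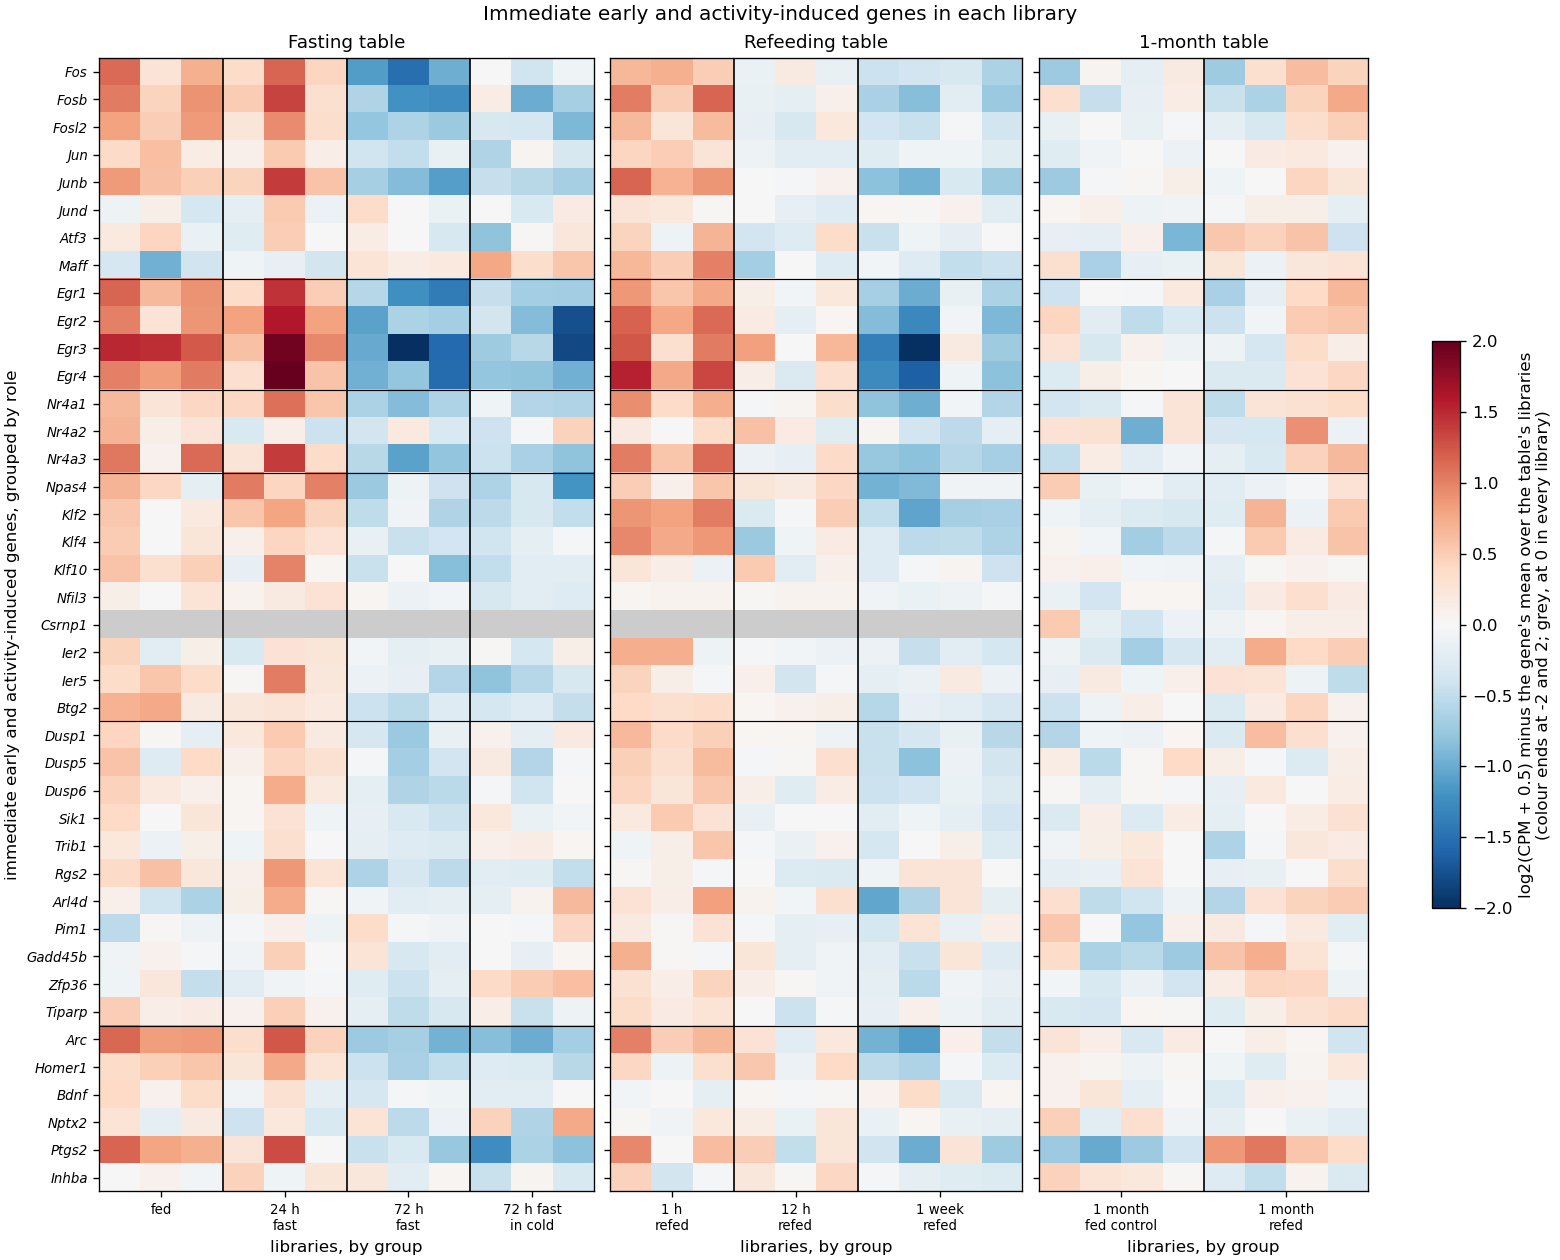
Level of each of the 41 genes in each library, as log2(CPM + 0.5) minus that gene's mean over the libraries of the same table (red higher, blue lower, colour ending at -2 and 2), with genes in rows by role and libraries in columns by group. The fed and 24 h columns are mostly red and the 72 h columns mostly blue in the upper rows, and in the refeeding table the colour goes from red at 1 h to blue at 1 week.

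After 24 h without food no member passed the test against fed mice. The test was edgeR's quasi-likelihood test over all genes of a table with Benjamini-Hochberg adjustment, and a gene is called changed where the adjusted p is below 0.05. Of 40 members tested 0 were called, where 0.0343% of all 20408 genes were (7 genes). At an unadjusted p below 0.05 there were 3 members (Nr4a2, Btg2 and Arl4d), and DESeq2 called 0. The median log2 fold change of the members was -0.0025, with 20 below and 20 above 0. Fos read 17.6, 9.42 and 13.01 CPM in the fed libraries and 10.2, 17.9 and 10.6 CPM after 24 h. Arc, whose protein governs AMPA receptor uptake at synapses, read 35.2, 28.2 and 28.6 CPM fed and 19.99, 37.6 and 21.6 CPM after 24 h. In both genes the ranges overlap, and the second 24 h library is the highest of its group.

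That second 24 h library stands apart from the others. It had the highest level of its group for 35 of 40 members, while it was the highest for 44.2% of all genes tested. Its summed striatal markers were also the highest of the group, at 1359 CPM, beside 1225 and 1238 CPM in the first and the third library. Of 40 members 24 had levels in the order of these sums over the 3 libraries, against 26.7% of all genes, and the part of striatal RNA in the result was not tested. Without it the median of the members between fed and 24 h was -0.20, and again 0 members were called.

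Between 24 h and 72 h of fasting 15 members fell and none rose. Of 40 members tested 15 were called, all lower, where 1.63% of all genes were called (333 of 20408), and the members' median log2 fold change was -0.72 against 0.0045 for all genes. Against fed mice 22 members were called after 72 h, 21 lower and 1 higher, where 15.1% of all genes were (3072), with a median of -0.71 against 0.0076. The 72 h libraries enter both comparisons, so the results are not independent.

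Fos, the founding member of the family, read 3.30, 2.40 and 3.68 CPM after 72 h. All 3 values are below every fed and 24 h value, and Fos was 4.24-fold lower than in fed mice and 4.09-fold lower than at 24 h. Its closest relative Fosb, which gives rise to the long-lived ΔFosB protein, read 7.40, 4.71 and 6.66 CPM fed, 4.97, 9.27 and 4.26 CPM at 24 h and 2.03, 1.16 and 1.11 CPM at 72 h. Each 72 h value is below each fed and 24 h value (log2 fold change -2.12 ± 0.40, adjusted p = 0.011 from fed to 72 h). Fosl2, a FOS relative with slower kinetics, read 27.5, 21.99 and 28.3 CPM fed and 8.77, 9.84 and 9.07 CPM at 72 h (log2 fold change -1.49 ± 0.20, adjusted p = 0.0050). Junb, a partner of FOS, read 19.7, 16.4 and 15.03 CPM fed and 6.55, 5.68 and 4.73 CPM at 72 h (log2 fold change -1.59 ± 0.23, adjusted p = 0.0054). Every 72 h value of these genes is below every fed value. Jun moved less, from 31.4, 36.9 and 26.6 CPM to 18.01, 17.01 and 21.7 CPM (log2 fold change -0.74 ± 0.18, adjusted p = 0.023), and was not called between 24 h and 72 h (adjusted p = 0.088). Jund, a member of the family that is expressed steadily in most cells, read 36.3, 42.6 and 30.6 CPM fed and 50.6, 39.4 and 35.4 CPM at 72 h (log2 fold change 0.20 ± 0.20, adjusted p = 0.51), with overlapping groups.

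Maff went the other way. It encodes a small MAF protein that pairs with cap'n'collar factors and other basic leucine zipper proteins, and it read 2.20, 1.25 and 2.08 CPM fed, 2.69, 2.55 and 2.13 CPM at 24 h and 3.60, 3.28 and 3.41 CPM at 72 h. Each 72 h value is above each fed and 24 h value, and the rise from fed to 72 h was called (log2 fold change 0.89 ± 0.23, adjusted p = 0.026), while that from 24 h was not (log2 fold change 0.48 ± 0.22, adjusted p = 0.21). Atf3, a stress-induced member, stayed between 0.545 and 1.33 CPM in these 3 groups and was not called.

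The 4 EGR factors were called in both comparisons, each lower. Egr3 read 32.1, 31.6 and 26.4 CPM fed, 16.9, 43.5 and 21.9 CPM at 24 h and 5.23, 2.25 and 3.43 CPM at 72 h, which is 8.23-fold below the fed level (log2 fold change -3.04 ± 0.44, adjusted p = 0.0066). That is the lowest log2 fold change of any member in this comparison. Egr4 read 5.58, 4.91 and 5.75 CPM fed and 1.06, 1.28 and 0.545 CPM at 72 h (log2 fold change -2.51 ± 0.44, adjusted p = 0.0094). Egr2 was the scarcest, at 3.30, 1.80 and 3.02 CPM fed and 0.406, 0.729 and 0.682 CPM at 72 h (log2 fold change -2.15 ± 0.56, adjusted p = 0.029), the latter resting on 15, 24 and 30 counts. Egr1, the best known of the family and also called Zif268, read 106.5, 74.1 and 87.9 CPM fed and 31.5, 19.8 and 17.5 CPM at 72 h (log2 fold change -1.96 ± 0.30, adjusted p = 0.0071). No 72 h value of any of the 4 genes reaches a fed or a 24 h value.

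Among the NR4A receptors, Nr4a1 (Nur77) and Nr4a3 (Nor1) were lower and Nr4a2 (Nurr1) was not called. Nr4a1 read 30.5, 23.1 and 25.7 CPM fed, 25.9, 42.1 and 28.6 CPM at 24 h and 12.2, 10.4 and 12.4 CPM at 72 h (log2 fold change -1.18 ± 0.19, adjusted p = 0.0079 against fed). Nr4a3 read 27.01, 13.5 and 28.6 CPM fed and 8.50, 5.83 and 7.21 CPM at 72 h (log2 fold change -1.68 ± 0.34, adjusted p = 0.014). Nr4a2, also a lasting marker of some forebrain and dopamine neurons, read 26.2, 17.7 and 19.5 CPM fed, 12.99, 17.8 and 11.99 CPM at 24 h and 12.4, 18.6 and 13.1 CPM at 72 h (log2 fold change -0.52 ± 0.24, adjusted p = 0.14). Its ranges overlap in these 3 groups.

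Of the other transcription regulators tested, 2 of 8 were called lower between 24 h and 72 h and 3 of 8 between fed and 72 h. Npas4, a neuron-restricted factor induced by calcium entry, read 7.51, 6.13 and 3.87 CPM fed, 9.79, 6.24 and 9.56 CPM at 24 h and 2.49, 4.13 and 3.25 CPM at 72 h. It was called against 24 h (log2 fold change -1.38 ± 0.31, adjusted p = 0.044) and missed the threshold against fed (log2 fold change -0.82 ± 0.31, adjusted p = 0.079), where the lowest fed value lies inside the 72 h range. Klf2, a factor of resting endothelium under flow, fell in both, from 8.88, 5.997 and 6.95 CPM fed to 4.06, 5.65 and 3.75 CPM (log2 fold change -0.70 ± 0.20, adjusted p = 0.035), and Klf4 and the antiproliferative regulator Btg2 fell against fed (log2 fold change -0.64 ± 0.18, adjusted p = 0.038 and log2 fold change -1.02 ± 0.16, adjusted p = 0.0069). Summed endothelial markers (10 genes, none at 0) were 333 to 362 CPM fed, 271 to 297 CPM at 24 h and 233 to 244 CPM at 72 h. They were thus lower at 72 h than fed, as Klf2 was. At 24 h they were lower too, while Klf2 read 9.01, 10.7 and 8.29 CPM, with a mean above that of fed mice (9.35 and 7.27 CPM). The part of endothelial RNA in the result was not tested.

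The 11 feedback regulators had a median log2 fold change of -0.51 between fed and 72 h, and that of the 8 AP-1 genes was -1.12. Of the 11, 4 were called lower: Rgs2 (log2 fold change -0.91 ± 0.18, adjusted p = 0.011), Dusp6 (log2 fold change -0.71 ± 0.19, adjusted p = 0.031), Tiparp (log2 fold change -0.61 ± 0.16, adjusted p = 0.030) and Sik1 (log2 fold change -0.53 ± 0.14, adjusted p = 0.029). RGS2 speeds the shut-off of G proteins, DUSP6 is a phosphatase of the kinase cascade, and SIK1 restrains the CREB coactivators. Rgs2 read 48.9, 56.5 and 44.1 CPM fed and 24.2, 29.5 and 25.9 CPM at 72 h without overlap, and was also called between 24 h and 72 h. Dusp1, Dusp5, Trib1, Arl4d, Pim1, Gadd45b and Zfp36 were not called, with log2 fold changes from -0.71 (Dusp5) to 0.33 (Pim1).

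Of 6 effectors 3 were called lower against fed: Arc, Homer1 and Ptgs2. Arc read 9.23, 9.66 and 7.86 CPM at 72 h, all below the fed and 24 h values, and was 3.44-fold lower than fed. Homer1, a scaffold of metabotropic glutamate receptors whose short form is the activity-induced one, read 138, 148.1 and 156.6 CPM fed, 126.5, 180.9 and 128.9 CPM at 24 h and 78.98, 68.1 and 75.9 CPM at 72 h (log2 fold change -0.99 ± 0.14, adjusted p = 0.0050 against fed), but counts per gene do not tell its forms apart. Ptgs2 (COX-2) read 4.44, 3.32 and 3.10 CPM fed and 1.11, 1.28 and 0.795 CPM at 72 h (log2 fold change -1.77 ± 0.40, adjusted p = 0.018). The growth factor Bdnf read 24.01, 19.2 and 23.5 CPM fed and 14.3, 17.9 and 17.2 CPM at 72 h (log2 fold change -0.44 ± 0.15, adjusted p = 0.063), and the pentraxin Nptx2 read 22.1, 15.9 and 20.8 CPM and 22.2, 12.6 and 16.8 CPM (log2 fold change -0.19 ± 0.32, adjusted p = 0.70), so that neither was called. Inhba, between 0.121 and 0.501 CPM, rested on few counts in a gene whose span is mostly shared.

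**Figure D2:**
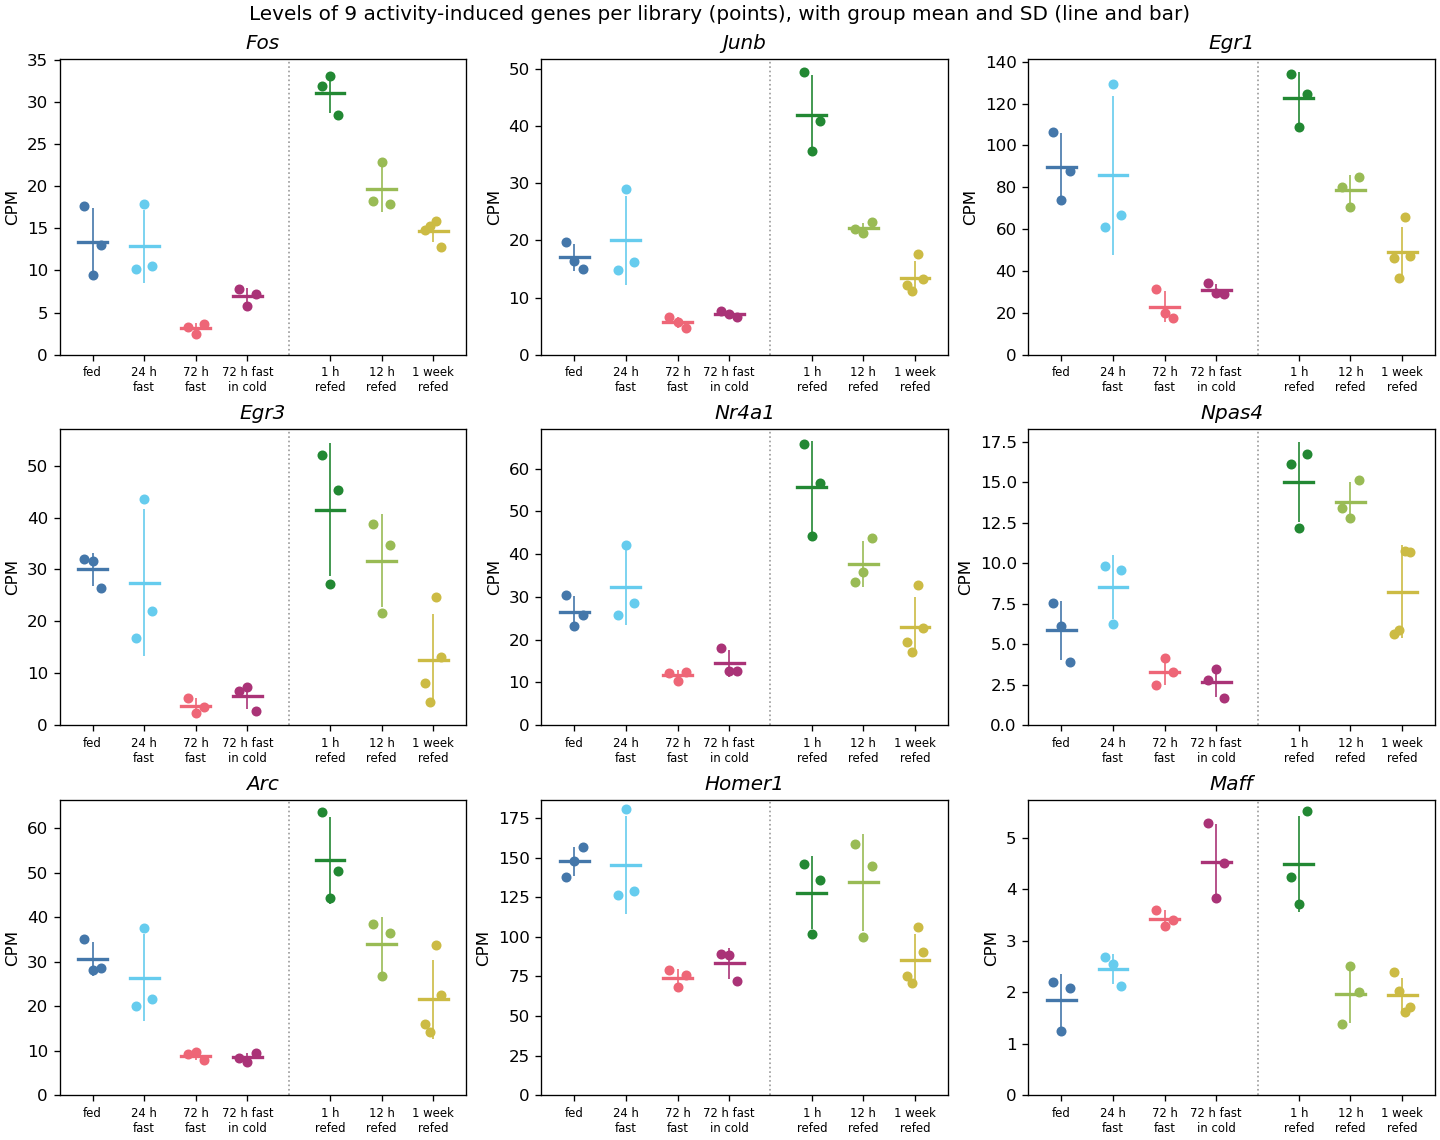
CPM of 9 members in each library of the fasting table (left of the dotted line) and of the refeeding table (right of it), with points for libraries, a horizontal line for the group mean and a vertical bar for the SD (n = 3, or 4 at 1 week). Axes start at 0, and levels are not comparable across the dotted line. Fos is at 2.40 to 3.68 CPM after 72 h and at 9.42 or above in the fed and 24 h libraries, while in the fasting table Maff is highest in the cold.

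The calls of the 72 h fast rest on few libraries. Without the second or without the third 72 h library 0 members were called between 24 h and 72 h, without the second 24 h library 10, and with DESeq2 24. Against fed mice the count lay between 11 and 24 on leaving out single libraries. It was 11 without the third 72 h library, and 14 without the second 72 h, the first fed or the second fed library. The second fed library also held RNA of liver and skeletal muscle (712 and 1129 CPM over 5 and 6 transcripts). Liver transcripts summed to 110 CPM in the third fed library and to 41.2, 132 and 49.9 CPM in the 24 h libraries as well, against 5.12 CPM in the first fed library and 4.25 to 5.17 CPM at 72 h. Their part in the result was not tested. Adding 1 surrogate variable, an estimate of hidden variation, left 0 calls in either comparison and a median of -0.42 and -0.37, with 17 and 16 members at an unadjusted p below 0.05. The surrogate ran from -0.43 to -0.17 in the 72 h libraries and from 0.003 to 0.53 in the fed and 24 h libraries, so it cannot be told apart from the length of the fast.

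Striatal RNA moved with the fall. Its 12 markers, none at 0 in any group, summed to 766 to 1356 CPM in fed, 1225 to 1359 CPM in 24 h and 490 to 589 CPM in 72 h libraries, and 8 of the 12 were called lower between 24 h and 72 h. Its part in the fall was not tested. The third fed library and the second cold library had similar sums (765.9 and 837.7 CPM), and read 13.01 and 5.74 CPM for Fos, 15.03 and 7.13 CPM for Junb and 28.6 and 7.58 CPM for Arc. The mean log2 deviation of the members from their table mean was 0.30 in the former and -0.32 in the latter. They are 1 library each, picked for their sums, and also differ in fast, cold and liver transcripts (110 and 5.77 CPM). These differences cannot be told apart in such a pair. Other cell types moved with the fall from fed to 72 h too. Of the markers tested, 4 of 4 for blood, 7 of 10 endothelial, 5 of 9 choroid plexus, 4 of 9 smooth muscle and pericyte, 3 of 5 meningeal, 3 of 7 microglia, 3 of 10 cortical and thalamic and 2 of 7 astrocyte markers were called lower, and 0 in these lists higher. List medians ran from -0.38 for astrocytes to -3.11 for blood. Between 24 h and 72 h 1 endothelial marker was called lower by edgeR, and no marker of the other 7 lists was called. The part of these lists in the result was not tested. Hypothalamic and oligodendrocyte markers had 0 calls between fed and 72 h, with medians of 0.012 and 0.037. Pan-neuronal markers (5 genes, 2 of them at 0) overlapped, at 2629 to 3092 CPM fed and 2400 to 2870 CPM at 72 h.

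**Figure D3:**
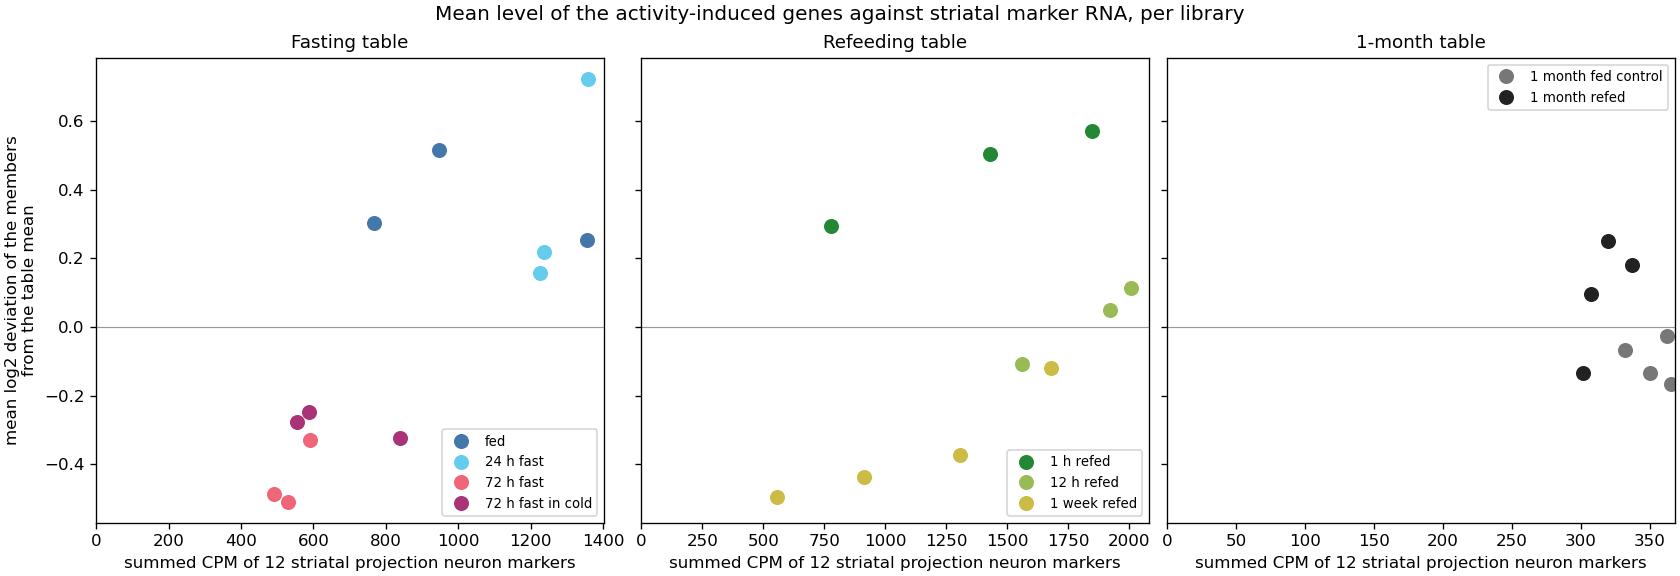
Mean log2 deviation of the members from the table mean (vertical axis, each gene as log2(CPM + 0.5)) against the summed CPM of 12 striatal projection neuron markers (horizontal axis), 1 point per library, coloured by group, in each table. In the fasting table low deviations go with low sums. In the refeeding table the 1 h libraries lie above the 12 h libraries, at sums of 778.3 to 1848 and 1560 to 2009 CPM.

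Cold during the 72 h fast brought no call. Of 40 members 0 were called between 72 h fasts without and with cold, where 0% of all 20408 genes were (0 genes by edgeR, with 1296 at an unadjusted p below 0.05 and 57 called by DESeq2). Among members 5 had an unadjusted p below 0.05, namely Fos, Zfp36, Trib1, Dusp1 and Sik1, all higher in the cold. Fos read 7.73, 5.74 and 7.24 CPM in the cold against 3.30, 2.40 and 3.68 CPM without it, and no values overlap (log2 fold change 1.14 ± 0.27, adjusted p = 0.45). Zfp36, which encodes the messenger RNA decay factor tristetraprolin, read 6.39, 7.07 and 7.51 CPM in the cold and 3.95, 3.43 and 4.16 CPM without it, again without overlap (log2 fold change 0.86 ± 0.19, adjusted p = 0.37). DESeq2 called these 2 members (adjusted p = 0.016 for Fos and 0.0065 for Zfp36) and no other. Of the 40 members 30 had a log2 fold change above 0, with a median of 0.18 against -0.0033 for all genes, among them all 11 feedback regulators.

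Against fed mice, the group fasted in the cold had 22 members called, 20 lower and 2 higher, where 17.9% of all genes were called (3661). Against 24 h it had 17, 16 lower and 1 higher, where 6.98% were (1424). All 4 EGR factors were lower in both. Fos was lower than in fed mice (log2 fold change -0.95 ± 0.26, adjusted p = 0.030) and was not called against 24 h (log2 fold change -0.90 ± 0.26, adjusted p = 0.056). Arc read 8.44, 7.58 and 9.59 CPM in the cold and was the member with the smallest adjusted p (log2 fold change -1.84 ± 0.21, adjusted p = 0.0010), and it remained called against both with a surrogate variable. With that term 1 and 2 members in all were called, Arc in each and Junb against 24 h. Maff, at 5.29, 3.84 and 4.51 CPM, was higher in the cold than in fed mice (log2 fold change 1.30 ± 0.23, adjusted p = 0.0052) and than at 24 h (log2 fold change 0.89 ± 0.22, adjusted p = 0.035). Zfp36 was higher than in fed mice (log2 fold change 0.64 ± 0.19, adjusted p = 0.038). That call was lost in 5 of the fits leaving out 1 library, and with the 2 groups alone, no filter or a replicate block. Without the first cold library the count against 24 h was 2, and without the second 24 h library 8. Summed striatal markers were 556 to 838 CPM in the cold.

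**Figure D4:**
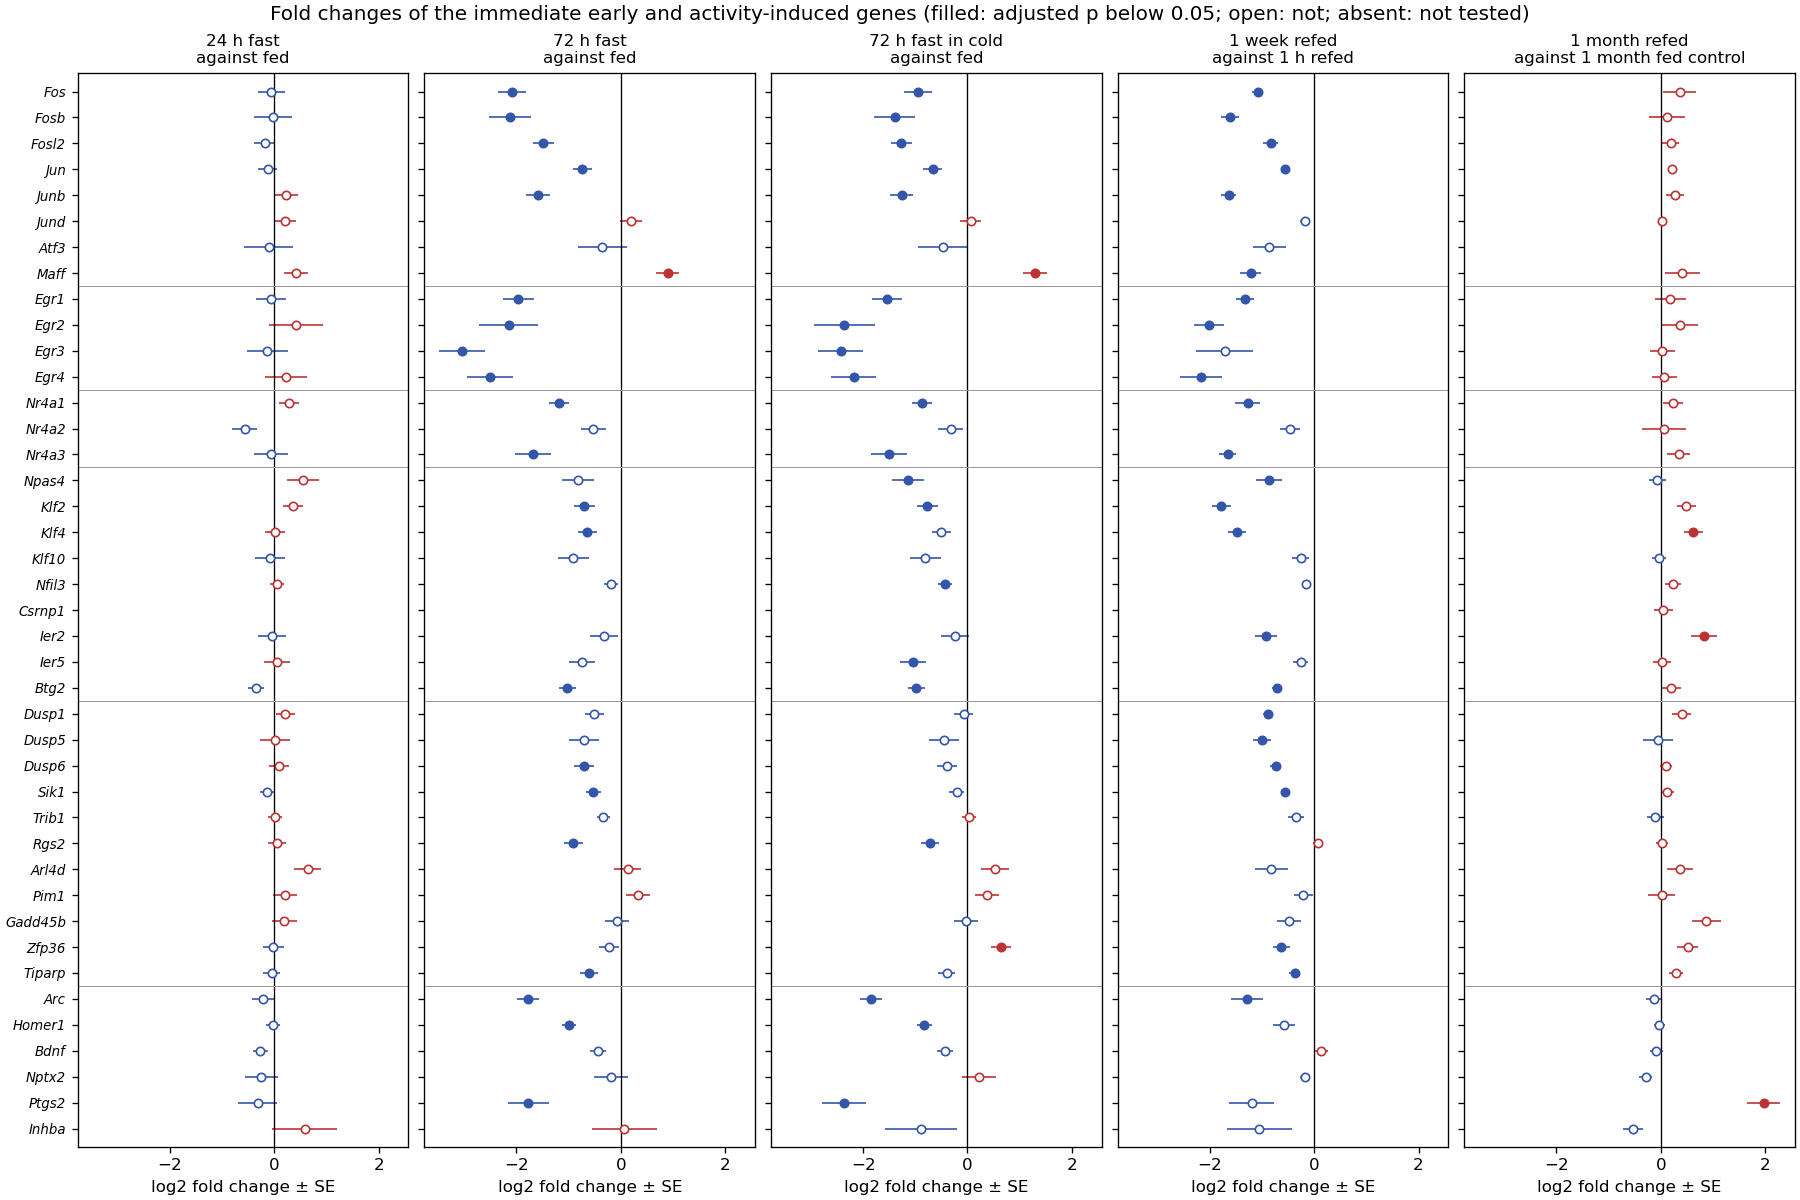
Log2 fold change ± SE of each member (rows, by role) in 5 comparisons (panels), with filled points for an adjusted p below 0.05 and open points for the rest. No point is filled at 24 h, most filled points lie left of 0 after 72 h with or without cold and between 1 h and 1 week of refeeding, and the 3 filled points at 1 month lie right of 0.

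In the refeeding table most members had their highest mean 1 h after food was returned and their lowest at 1 week. Of 40 members tested, 33 had their highest group mean at 1 h and 33 their lowest at 1 week, and 28 had means in descending order from 1 h to 12 h to 1 week. The same orders were not counted over all genes, of which 2689 were called higher and 2681 lower at 1 week than at 1 h. Between 1 h and 12 h 15 members were called, all lower, where 14.2% of all 19932 genes were called (2834). Between 12 h and 1 week 8 were, all lower, where 11.6% were (2304), and between 1 h and 1 week 23 were, all lower, where 26.9% were (5370). The median log2 fold changes were -0.40, -0.36 and -0.84, against 0.0042, -0.014 and 0.0012 for all genes. These comparisons share their groups, and those with 1 week coincide with the difference in depth given above.

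From 1 h to 12 h 7 of 8 AP-1 genes were called, all lower. Except for Fosl2 and Jund, these calls held in each fit leaving out 1 library. Fos read 31.8, 33.1 and 28.4 CPM at 1 h, 18.2, 22.8 and 17.9 CPM at 12 h and 14.8, 15.2, 15.8 and 12.8 CPM at 1 week. Each step was called (log2 fold change -0.66 ± 0.11, adjusted p = 0.0015 and log2 fold change -0.42 ± 0.10, adjusted p = 0.016), and no groups overlap. Junb read 49.5, 35.7 and 40.8 CPM at 1 h, 21.9, 21.3 and 23.2 CPM at 12 h and 12.2, 11.1, 17.6 and 13.2 CPM at 1 week, and it too fell at each step (log2 fold change -0.92 ± 0.16, adjusted p = 0.0033 and log2 fold change -0.71 ± 0.15, adjusted p = 0.011). Fosb read 15.7, 10.7 and 17.4 CPM at 1 h and 6.65, 6.52 and 7.999 CPM at 12 h (log2 fold change -1.05 ± 0.20, adjusted p = 0.0046). Jun fell from 32.4, 33.9 and 28.7 CPM to 22.4, 20.7 and 20.7 CPM (log2 fold change -0.57 ± 0.08, adjusted p = 0.00079) and then read 20.3, 22.4, 22.6 and 20.2 CPM at 1 week, where the step was not called (log2 fold change 0.010 ± 0.08, adjusted p = 0.95).

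Maff, higher after 72 h than in fed mice, was high at 1 h as well. It read 4.24, 3.73 and 5.53 CPM at 1 h, 1.38, 2.52 and 2.01 CPM at 12 h and 2.40, 2.02, 1.63 and 1.72 CPM at 1 week. All 1 h values are above all later ones, and the fall by 12 h was called (log2 fold change -1.18 ± 0.23, adjusted p = 0.0039). Fosl2 read 50.2, 37.9 and 49.96 CPM at 1 h and 28.5, 25.7 and 36.95 CPM at 12 h (log2 fold change -0.60 ± 0.16, adjusted p = 0.028). Jund was called lower by a small step (log2 fold change -0.31 ± 0.10, adjusted p = 0.047), and Atf3 was not called. The calls of Fosl2 and Jund were each lost in 4 of the fits leaving out 1 library.

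Of the EGR factors 1 was called from 1 h to 12 h. Egr2 fell from 7.45, 5.50 and 7.21 CPM at 1 h to 3.42, 2.59 and 3.10 CPM at 12 h (log2 fold change -1.15 ± 0.31, adjusted p = 0.032). Egr4 read 28.1, 16.3 and 24.3 CPM at 1 h, 10.3, 7.60 and 11.9 CPM at 12 h and 3.58, 2.69, 8.83 and 5.08 CPM at 1 week, and only the whole interval was called (log2 fold change -2.17 ± 0.40, adjusted p = 0.0066). Egr1 read 134, 108.6 and 124.7 CPM at 1 h and 79.9, 70.3 and 85.1 CPM at 12 h. At 1 week it read 46.02, 36.6, 65.9 and 46.98 CPM (log2 fold change -1.32 ± 0.17, adjusted p = 0.00084 over the whole interval). Its step from 12 h to 1 week was called as well (log2 fold change -0.68 ± 0.18, adjusted p = 0.039). The call of that step was lost in 6 of the fits leaving out 1 library. Egr3 read 52.1, 27.2 and 45.4 CPM at 1 h, 38.8, 21.6 and 34.8 CPM at 12 h and 8.09, 4.43, 24.6 and 13.1 CPM at 1 week. Its values at 1 week were widely spread, and it was not called over any interval (adjusted p = 0.058 from 1 h to 1 week).

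Nr4a3 was the one NR4A receptor called at both steps. It read 50.8, 36.6 and 54.95 CPM at 1 h, 22.8, 22.1 and 32.6 CPM at 12 h and 14.4, 13.8, 16.5 and 15.5 CPM at 1 week (log2 fold change -0.87 ± 0.17, adjusted p = 0.0086 and log2 fold change -0.78 ± 0.16, adjusted p = 0.013). Nr4a1 read 65.8, 44.4 and 56.7 CPM at 1 h and 19.4, 17.1, 32.8 and 22.7 CPM at 1 week (log2 fold change -1.27 ± 0.23, adjusted p = 0.0058). Nr4a2 read 14.2, 12.5 and 16.3 CPM and 13.01, 9.44, 8.50 and 10.8 CPM at those times and was not called.

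Klf2 and Klf4, which sense flow in endothelium and also respond in neurons, fell early. Klf2 read 8.53, 8.05 and 9.45 CPM at 1 h, 3.50, 4.27 and 6.38 CPM at 12 h and 2.998, 1.85, 2.61 and 2.64 CPM at 1 week, with both steps called (log2 fold change -0.87 ± 0.20, adjusted p = 0.011 and log2 fold change -0.91 ± 0.19, adjusted p = 0.0096). Klf4 read 9.17, 7.91 and 8.55 CPM at 1 h and 2.46, 4.17 and 5.08 CPM at 12 h (log2 fold change -1.12 ± 0.20, adjusted p = 0.0024). Endothelial markers summed to 125 to 185, 128 to 181 and 123 to 133 CPM at the 3 times, and their part in the result was not tested. Npas4 read 16.1, 12.2 and 16.7 CPM at 1 h and 13.4, 12.8 and 15.1 CPM at 12 h, with little difference (log2 fold change -0.12 ± 0.27, adjusted p = 0.81), and 5.62, 5.86, 10.7 and 10.7 CPM at 1 week (log2 fold change -0.86 ± 0.25, adjusted p = 0.030 from 1 h). Btg2 (log2 fold change -0.71 ± 0.10, adjusted p = 0.00015) and Ier2 (log2 fold change -0.92 ± 0.20, adjusted p = 0.0042) were also lower at 1 week than at 1 h, while Klf10, Nfil3 and Ier5 were not called at any step.

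Feedback regulators fell from 1 h to 12 h in 4 of 11 cases, namely Dusp1, Dusp6, Sik1 and Tiparp, and by 1 week in 6, with Dusp5 and Zfp36 added. All 11 had a log2 fold change below 0 between 1 h and 12 h, with a median of -0.36. Sik1, a classical CREB target, read 42.7, 53.5 and 45.5 CPM at 1 h, 33.4, 37.5 and 37.6 CPM at 12 h and 32.02, 35.2, 32.8 and 28.5 CPM at 1 week (log2 fold change -0.38 ± 0.09, adjusted p = 0.015 for the first step). Dusp1 read 30.9, 25.6 and 27.2 CPM, 20.1, 20.1 and 18.1 CPM and 14.2, 15.4, 17.6 and 13.1 CPM (log2 fold change -0.52 ± 0.11, adjusted p = 0.0064). No 12 h value of either gene reached the 1 h range. Rgs2 did not follow, at 40.5, 43.2 and 39.3 CPM at 1 h and 37.6, 48.2, 47.5 and 39.5 CPM at 1 week (log2 fold change 0.075 ± 0.09, adjusted p = 0.59).

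Of the effectors, 0 of 6 were called between 1 h and 12 h, with 0 more between 12 h and 1 week, and Arc was the only one called over the whole interval. Arc read 63.6, 44.4 and 50.4 CPM at 1 h, 38.4, 26.9 and 36.6 CPM at 12 h and 16.1, 14.2, 33.8 and 22.5 CPM at 1 week (log2 fold change -1.28 ± 0.31, adjusted p = 0.021). Homer1 read 146, 101.7 and 135.9 CPM at 1 h, 158.7, 100.2 and 144.6 CPM at 12 h and 75.4, 71.1, 105.9 and 90.4 CPM at 1 week (log2 fold change -0.58 ± 0.20, adjusted p = 0.071). Bdnf read 15.03, 15.8 and 13.8 CPM at 1 h and 16.4, 20.3, 12.6 and 16.1 CPM at 1 week (log2 fold change 0.13 ± 0.12, adjusted p = 0.44), and Nptx2 stayed between 16.6 and 22.6 CPM. DESeq2 called 18, 15 and 27 members over the 3 intervals, and a surrogate variable gave 20, 18 and 29.

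Marker lists were read at the same times of refeeding. The 12 striatal markers summed to 1848, 778.3 and 1428 CPM at 1 h and to 1560 to 2009 CPM at 12 h, and 0 of the 12 were called by edgeR. Cortical and thalamic markers (10 genes, none at 0) were lower with the members, at 314 to 380 CPM at 1 h, 236 to 303 CPM at 12 h and 220 to 274 CPM at 1 week, with no overlap between 1 h and 12 h. Of these 10, 1 was called lower between 1 h and 12 h, 3 between 12 h and 1 week and 6 between 1 h and 1 week, with a list median of -1.23 over the whole interval. Astrocyte markers (7 genes, none at 0) summed to 3051 to 3143 CPM at 1 h and 2468 to 3033 CPM at 12 h, with 2 of 7 called lower, and to 2719 to 3120 CPM at 1 week. Of the 7, 4 were called higher between 12 h and 1 week and 3 between 1 h and 1 week, with 0 lower in either. Over the whole interval 5 of 5 meningeal and 6 of 7 microglia markers were called higher, with 0 lower. Of 7 oligodendrocyte markers 5 were called higher and 2 lower. The part of striatal RNA and of these lists in the result was not tested.

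The order of the striatal sums within a group was shared by some members. At 1 week the sums were 912.3, 555.2, 1681 and 1305 CPM, and 11 of 40 members, among them Egr1, Egr3, Egr4, Arc, Homer1, Junb and Nr4a1, had exactly that order of levels, against 7.28% of all genes. At 1 h the order was shared by 15 of 40 members, against 17.3% of all genes, and at 12 h by 12 of 40, against 11.7%. In the fasting table it was shared by 14 of 40 members at 72 h, against 16.7%, by 7 of 40 in fed libraries, against 19.1%, and by 4 of 40 in the cold, against 20.9%. The third library at 1 week was the highest of its group for 25 of 40 members, against 24.7% of all genes. Without it the count of members called between 12 h and 1 week was 16, and it was 2 without the third 12 h library and 5 without the second 12 h or the second 1 week library. Blood markers (5 genes, 1 of them at 0) also differed between the times, at 68.4 to 123 CPM at 1 h, 76.4 to 120 CPM at 12 h and 401 to 1257 CPM at 1 week, as did pan-neuronal markers (2458 to 2672, 2290 to 2486 and 1955 to 2265 CPM), and the part of these lists in the result was not tested.

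At 1 month after the fast members were called against fed controls no more often than genes in general. Of 40 members tested (Atf3 was too low to be tested) 3 were called (7.5%), all higher, where 10.1% of all 14867 genes were (1506). The median log2 fold change was 0.16 against 0.0018 for all genes. Ptgs2, the inducible prostaglandin synthase, read 0.672, 0.464, 0.671 and 0.988 CPM in controls and 3.02, 3.51, 2.35 and 2.01 CPM in refed mice. No values overlap, and Ptgs2 was 3.92-fold higher in refed mice (log2 fold change 1.97 ± 0.31, adjusted p = 0.00070), from 6 to 12 counts per control library and 19 to 49 per refed library. Ier2 read 2.98, 2.55, 1.82 and 2.47 CPM in controls and 2.73, 5.73, 4.42 and 4.75 CPM in refed mice (log2 fold change 0.84 ± 0.25, adjusted p = 0.040), and the first refed library lies in the control range. Klf4 read 11.7, 10.8, 6.81 and 7.74 CPM and 10.9, 16.5, 12.8 and 17.1 CPM (log2 fold change 0.62 ± 0.18, adjusted p = 0.041), again with overlap. Ier2 and Klf4 lost their calls when any of several single libraries was left out, and the count was 1 without the control library numbered 3 or 4 or the refed library numbered 2 or 4. It was 5 without the refed library numbered 1, and 1, Ptgs2, with a surrogate variable.

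Fos, Arc and the EGR factors were not called at 1 month. Fos read 11.5, 20.2, 16.97 and 22.1 CPM in controls and 11.6, 24.3, 29.8 and 26.6 CPM in refed mice (log2 fold change 0.37 ± 0.31, adjusted p = 0.51). Arc read 12.3, 11.3, 8.15 and 11.5 CPM and 10.2, 11.1, 10.4 and 7.60 CPM (log2 fold change -0.13 ± 0.16, adjusted p = 0.64). The 4 EGR factors had log2 fold changes between 0.028 (Egr3) and 0.36 (Egr2). The first refed library was the lowest of its group for 22 of 40 members, against 23.0% of all genes.

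Markers of several other cell types moved with the 1-month group. The 6 meningeal markers, none at 0, summed to 77.9 to 166 CPM in controls and 431 to 700 CPM in refed libraries, the 10 endothelial markers to 291 to 333 and 378 to 491 CPM, and the 9 smooth muscle and pericyte markers to 136 to 150 and 170 to 280 CPM. The 8 microglia markers summed to 254 to 316 and 334 to 366 CPM, and the 9 choroid plexus markers to 36.2 to 43.5 and 44.2 to 54.5 CPM. Each of these 5 lists is higher in every refed library than in any control, and their part in the result for Ptgs2, Ier2 and Klf4 was not tested. Striatal markers summed to 332 to 365 CPM in controls and 302 to 337 CPM in refed mice.

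**Figure D5:**
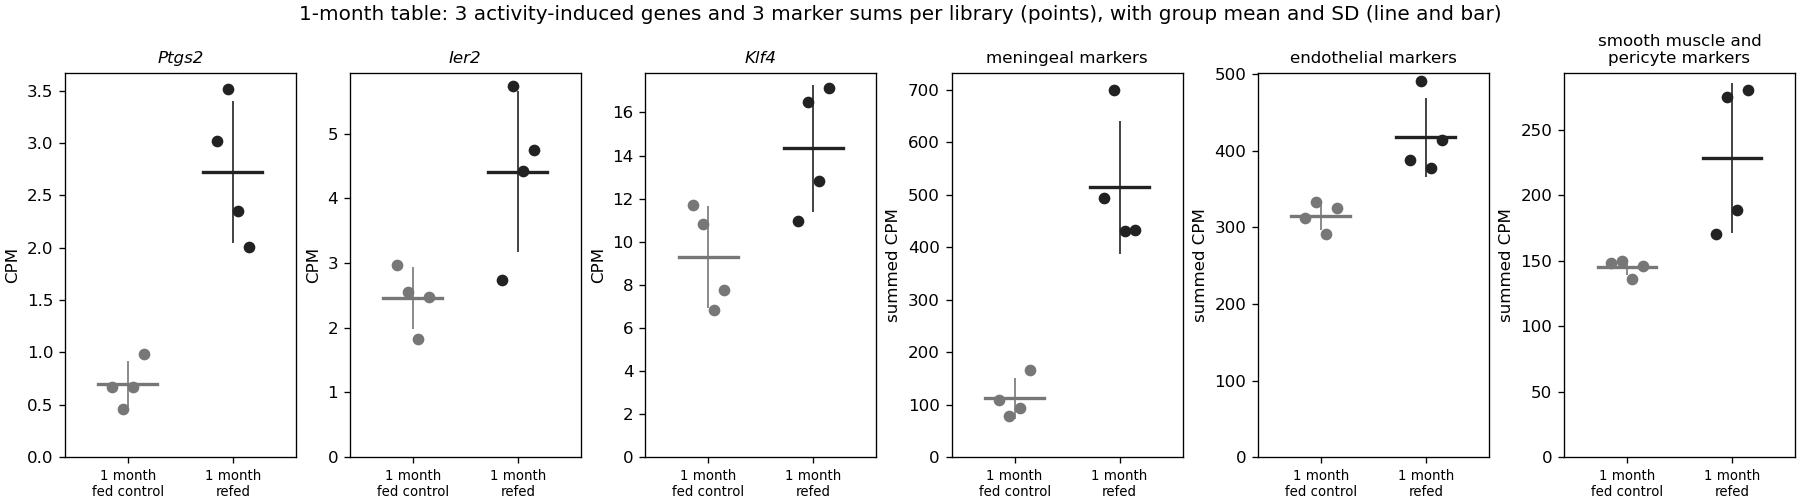
CPM of Ptgs2, Ier2 and Klf4 and summed CPM of meningeal, endothelial, and smooth muscle and pericyte markers in the 1-month table, 1 point per library, with the group mean (line) and SD (bar), n = 4 each. Axes start at 0. Ptgs2 and the 3 marker sums do not overlap between the groups, while Ier2 and Klf4 do.

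Other genes of the pathway were read from fixed lists. Of 30 further activity-induced genes 29 were tested in the fasting and refeeding tables. Between 24 h and 72 h 3 were called, all lower, where 1.63% of all genes were called, with a list median of -0.34: Baz1a (-1.28 ± 0.19), Rem2 (-1.29 ± 0.24) and Plk2 (-1.06 ± 0.19), of which PLK2 is a kinase that weakens overactive synapses. Between fed and 72 h 8 were called, all lower, where 15.1% of all genes were called. Between 1 h and 12 h of refeeding 8 were lower and 1 higher, where 14.2% were called. Per1, a clock gene that is also induced by CREB, was the lowest of them (-0.97 ± 0.10), beside the neuropeptide precursor Vgf (-0.31 ± 0.07), Midn (-0.40 ± 0.06), the protease gene Plat (-0.40 ± 0.09) and the growth factor signalling inhibitor Spry4 (-0.38 ± 0.09). At 1 month, where 10.1% of all genes were called, 4 of 30 were higher, namely Ccn2 (2.56 ± 0.51), Ccn1 (1.02 ± 0.24), Plat (0.62 ± 0.13) and Errfi1 (0.56 ± 0.10), and 2 were lower, among them the sorting receptor gene Sorcs3 (-0.33 ± 0.08). All values in this paragraph and the next are log2 fold changes ± SE of genes with an adjusted p below 0.05 by edgeR. The connective tissue genes Ccn1 and Ccn2 are made by vessel wall and meningeal cells too, whose summed markers were higher as given above. The part of these cells in the result for Ccn1 and Ccn2 was not tested.

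Upstream of the members, 27 genes for kinases, channels, receptors and factors were tested. Between 24 h and 72 h 4 were called, all lower, where 1.63% of all genes were called, among them Camk4 (-0.80 ± 0.12) and Camkk2 (-0.62 ± 0.12), kinases that carry the calcium signal to CREB, and the calcineurin subunit Ppp3ca (-0.49 ± 0.11). Between fed and 72 h 8 were lower and 3 higher, where 15.1% were called, with Creb1 itself at -0.46 ± 0.08 and the factor Mef2c at -0.96 ± 0.17. Over refeeding 4 were lower between 1 h and 12 h, a share near the 14.2% of all genes called, among them the NMDA receptor subunit Grin1 (-0.36 ± 0.07). Between 1 h and 1 week 11 were lower, where 26.9% of all genes were called, with 0 higher in either. At 1 month 5 were lower and 1 higher, where 10.1% were called, with Grin2b at -0.41 ± 0.09 and Camk4 at -0.50 ± 0.13. The medians of this list lay between -0.22 and 0.06 in all 10 comparisons, where the members' lay between -0.84 and 0.18.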

How the data were processed

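Total RNA of mouse hypothalamus had been sequenced as directional, ribosomal RNA-depleted libraries, per the labels' protocols. The authors deposited 3 tables of raw counts per Ensembl gene. HISAT2, featureCounts, edgeR and the mm10 build are named, without versions, in the submitters' processing notes. Their own comparison tables were not used, nor were 2 columns of counts that match no sample.

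Within each table, genes passing filterByExpr were scaled by TMM and fitted with edgeR 4.0.16 (robust quasi-likelihood, R 4.3.3, prior count 0.125), with all groups of the table sharing 1 estimate of spread. P-values were adjusted by Benjamini-Hochberg over all genes tested, and the threshold was 0.05. In all, 10 comparisons were made, and none across tables. Alternatives were DESeq2 1.42.0, RLE normalization, no filter on low counts, the 2 groups alone, a replicate block, 1 surrogate variable (sva 3.50.0) and leaving out each library. The fit was tested on simulated data. Members and lists were chosen with earlier results of these data known. The genes described were the members, with those called in a comparison given their values, and at most 5 called genes of each pathway list, by adjusted p. Nr4a2, Bdnf and Nptx2, which were called nowhere, were given values by choice after these were seen. 1 gene of a pathway list is not reported here by name.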

Additional observations from a re-analysis of the deposited data

Results flagged for a closer look

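Fosl2 in the third library at 1 week of refeeding, at 31.0 CPM, lay far above the other 3 libraries of its group. It was the 1 value to stand apart among 29 groups of 4 libraries examined for the members named, where chance alone flags about 1 group in 20.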

How the results depend on the processing

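Changes to normalization, filter and groups fitted left the counts of members called within 1.5 times. With 1 surrogate variable the count was 0 between 24 h and 72 h, 0 between fed and 72 h, 1 between fed and cold, 2 between 24 h and cold, 18 between 12 h and 1 week, and 1 at 1 month. With DESeq2 it was 24 between 24 h and 72 h, 2 between 72 h with and without cold, and 15 between 12 h and 1 week. Leaving out single libraries gave 0 to 14 between 24 h and 72 h, 11 to 24 between fed and 72 h, 13 to 20 between fed and cold, 2 to 15 between 24 h and cold, 10 to 14 between 1 h and 12 h, 2 to 16 between 12 h and 1 week, 19 to 29 between 1 h and 1 week, and 1 to 5 at 1 month. It gave 0 in the other comparisons. Same-numbered libraries deviated together with correlations from -0.23 to 0.33, and differently numbered ones from -0.42 to 0.32. At 1 week the numbers are those of the sample titles, and for all but the first library the library names carry other numbers. Whether the numbers pair libraries cannot be told from so few. A replicate block gave 13 calls between 12 h and 1 week and stayed within 1.5 times of the count elsewhere. No value changed sign past its threshold. Apart from what each alternative leaves out, the cause was not tested. Depth limits the scarce members, such as Egr2 with 2 counts in 1 cold library.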
